A study of Mus musculus with 7 samples.

Results

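The CD300 receptors are a family of immunoglobulin-like receptors on the surface of myeloid and some other cells. The 6 genes described here are those whose symbol in the deposited table is Cd300a, Cd300lf, Cd300lb, Cd300ld, Cd300e or Cd300lg, out of 35641 genes in the table. RNA had been sequenced from lung cells of female C57BL6 mice in 2 groups, with 4 libraries named HF and 3 named LF. The labels do not spell out these names and give no age, diet or treatment, and the study's title speaks of obesity. All libraries carry the label of neutrophils, taken by a sort for CD45 and CD11b with low Ly6C and with Ly6G, and RNA isolated with TRIzol LS went through a SMART-Seq kit. No genetic change is named for either group.

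CD300 receptors bind lipids that become exposed on dying or activated cells, chiefly phosphatidylserine, phosphatidylethanolamine and ceramide, and pass on an inhibitory or an activating signal. CD300A and CD300LF carry ITIM motifs in their tails, which recruit the phosphatases SHP-1, SHP-2 and SHIP-1. CD300LB, CD300LD and CD300E have short tails and signal through ITAM adaptors such as DAP12 and the FcR gamma chain, while CD300LG, also named nepmucin, is known best from vascular endothelium.

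The libraries labelled LF went against the sort. Ly6g, the gene of the Ly6G protein, was at 0.749, 0 and 8.22 normalized counts there, while HF gave 1301 to 4944. All 12 neutrophil markers looked at were higher in HF, with a sum of 421820 to 569424 normalized counts, as against 8129 to 8702. All 11 monocyte markers were lower in HF, with sums of 24601 to 30675 against 161069 to 170232. Of 14936 genes tested, 55% passed an adjusted p of 0.05 (limma, Benjamini-Hochberg), 26.2% as higher and 28.7% as lower in HF. The cell type of the libraries and the group cannot be told apart in this design, which holds for every difference given here. In bulk RNA, fewer cells of a type and less RNA per cell cannot be told apart either.

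Cd300a, Cd300lb, Cd300ld, Cd300e and Cd300lf lie in 1 cluster on chromosome 11, and Cd300lg lies elsewhere on that chromosome. The promoters of 4 of them, the 3 genes with the largest differences upward in HF and Cd300e, are shown because these neighbouring genes differed so unequally between the groups. Each is the stretch of 250 bases before the start of the gene in RefSeq, build GRCm38.p6, written 5′ to 3′ along the gene. The stretches are chr11:115133993-115134242 for Cd300lf, chr11:114989887-114990136 for Cd300ld, chr11:114934372-114934621 for Cd300lb and chr11:115062040-115062289 for Cd300e, all on the minus strand. Capitals mark AGGAAG, a string of the kind that ETS factors such as PU.1 bind, or the same string on the other strand.
Cd300lf: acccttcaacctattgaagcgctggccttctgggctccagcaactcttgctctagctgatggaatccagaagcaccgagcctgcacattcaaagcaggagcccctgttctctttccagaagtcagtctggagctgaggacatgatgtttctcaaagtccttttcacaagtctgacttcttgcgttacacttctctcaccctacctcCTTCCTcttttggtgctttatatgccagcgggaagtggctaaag
Cd300ld: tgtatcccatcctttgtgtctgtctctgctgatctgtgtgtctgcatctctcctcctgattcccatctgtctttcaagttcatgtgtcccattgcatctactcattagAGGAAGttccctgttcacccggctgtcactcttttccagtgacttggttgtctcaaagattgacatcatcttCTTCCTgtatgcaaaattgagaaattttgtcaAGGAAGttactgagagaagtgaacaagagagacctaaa
Cd300lb: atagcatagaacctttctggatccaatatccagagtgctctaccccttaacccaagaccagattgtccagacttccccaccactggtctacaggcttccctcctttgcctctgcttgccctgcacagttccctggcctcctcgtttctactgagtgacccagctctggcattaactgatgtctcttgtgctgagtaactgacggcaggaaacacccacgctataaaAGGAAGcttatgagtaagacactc
Cd300e: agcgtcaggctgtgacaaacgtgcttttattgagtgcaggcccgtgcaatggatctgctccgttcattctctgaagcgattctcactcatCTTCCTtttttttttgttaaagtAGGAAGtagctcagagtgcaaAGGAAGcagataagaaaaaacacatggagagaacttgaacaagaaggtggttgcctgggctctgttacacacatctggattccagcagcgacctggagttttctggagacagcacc

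AGGAAG was found in all 5 member promoters of the RefSeq promoter set used, in which Cd300lg has no entry. It was also found in 29.5% of all 32851 promoters of that length. It was picked for marking, out of 11 strings searched, after its matches had been seen, so its share is a description only. It stood 44 bases before the start of Cd300lf on the other strand and 24 bases before the start of Cd300lb. Cd300ld held it 142, 70 and 38 bases before its start. The longer GAGGAAGT was found in Cd300ld only among the 5, and in 2.44% of all promoters. TATAAA was found 30 bases before the start of Cd300lb and, on the other strand, 28 bases before that of Cd300lf, and in 12.4% of all promoters. Counted over all 10 CD300 genes with an entry, AGGAAG was in 10, but the tandem copies among them share sequence and are not separate observations. The other strings were searched on both strands as well. GAGGAA was in 3 of the 5 promoters (23.3% of all) and GGAAGT in 4 (19.7% of all), and both can overlap AGGAAG. The GGAAGT of Cd300lb and of Cd300lf, 180 bases (other strand) and 14 bases before their starts, were apart from AGGAAG. TTNNGCAA, the C/EBP string, was in 1 (9.56% of all), and the STAT string TTCNNNGAA was in 1 (7.02% of all). Found in 0 of the 5 were the RUNX string TGTGGT (14% of all), its looser form TGNGGT (40.1%), the E-box CACGTG (6.02%) and the interferon-stimulated response element (2.98%).

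Of the 6 receptors, 4 were higher in HF (Cd300lf, Cd300ld, Cd300lb and, with a direction that 2 other scalings turned, Cd300a), 1 was lower (Cd300lg) and Cd300e did not pass the test. For comparison, 26.2% of all genes tested were called higher. The groups did not overlap in any of the 6, as in 62.2% of all genes tested (28.4% with HF above, as in 4 of the 6, and 33.7% with HF below, as in 2). Values are deposited normalized counts, and differences are of mean log2(normalized count + 1), with their standard error. The plot of the receptors by library shows all 42 values.

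**Figure D1:**
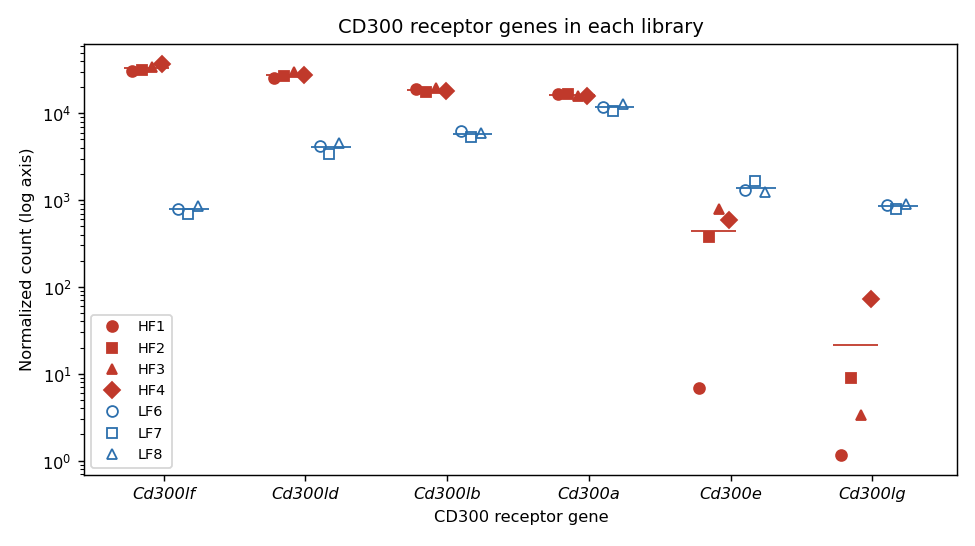
Normalized counts (log axis) of the 6 CD300 receptor genes in each library, HF filled and the libraries labelled LF open, with a horizontal line at each group's mean. Cd300lf stood at 30837 to 37375 in HF, against 700.4 to 855 in those labelled LF, while Cd300e and Cd300lg were spread widely among the HF libraries.

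Cd300lf (ENSMUSG00000047798), the inhibitory receptor CLM-1, showed the widest gap upward in HF among the receptors. HF1 to HF4 gave 30837, 31341, 34410 and 37375 normalized counts, and LF6, LF7 and LF8 gave 797, 700.4 and 855. Every HF library was far above every library labelled LF, and libraries of a group were close to each other. The means were 33491 ± 3033 (SD, n = 4) and 784 ± 78.0 (SD, n = 3), a ratio of 42.7. The difference was 5.42 ± 0.10 on the log2 scale (adjusted p = 2.1e-08, limma).

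Cd300a (ENSMUSG00000034652), the other receptor with ITIM motifs, differed little. It stood at 16489, 16633, 15773 and 15764 normalized counts in HF1 to HF4, and at 11775, 10664 and 12799.7 in LF6, LF7 and LF8. All HF libraries were above all libraries labelled LF, by a ratio of means of 1.38. The difference of 0.46 ± 0.07 passed the test (adjusted p = 0.00068, limma), but its direction depended on the scaling. With libraries scaled to equal totals it was -0.056 (adjusted p = 0.53) and after quantile normalization -0.49 (adjusted p = 0.00098), in a range of 9.9e-09 to 0.53 over 16 alternatives. The normalized counts of all genes summed to 1.79e+07 to 1.95e+07 in HF, and to 1.27e+07 to 1.31e+07 in LF6 to LF8.

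A ratio between receptors within a library does not depend on a factor applied to the whole library, though quantile normalization can change it. Cd300lf reads came to 1.87, 1.88, 2.18 and 2.37 times those of Cd300a in HF1 to HF4, and to 0.0677, 0.0657 and 0.0668 times in LF6, LF7 and LF8. Both ITIM receptors thus differed unequally, with a 31.1-fold change of their ratio. The ratio to Cd300a was 4.93-fold higher in HF for Cd300ld and 2.32-fold higher for Cd300lb. For Cd300e it ran from 0.000419 (HF1) to 0.0507 in HF, against 0.0959 to 0.157 in LF6 to LF8. For Cd300lg it ran from 6.99e-05 to 0.00464 in HF, where HF4 was far above the others, against 0.0704 to 0.0752.

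The activating receptors Cd300ld and Cd300lb were also higher in HF. Cd300ld (ENSMUSG00000034641), the receptor CLM-5, which signals through the FcR gamma chain, gave 25338, 26641, 29973 and 27768 normalized counts in HF1 to HF4 and 4193, 3429 and 4570.0 in LF6, LF7 and LF8. The groups were well apart, with a ratio of means of 6.75 and a difference of 2.76 ± 0.10 (adjusted p = 3.9e-07, limma). Cd300lb (ENSMUSG00000063193), the DAP12-coupled CLM-7, gave 19284, 17375, 19334 and 18277 in HF1 to HF4, as against 6169, 5315 and 5939 in LF6, LF7 and LF8. Its gap was narrower, with a ratio of 3.20 and a difference of 1.68 ± 0.07 (adjusted p = 6.5e-07, limma).

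Cd300e (ENSMUSG00000048498), the activating receptor CLM-2, is known from monocytes, in particular those that patrol vessels. Its values in HF1 to HF4 were 6.92, 373, 799 and 591 normalized counts, and those in LF6, LF7 and LF8 were 1290.2, 1670.3 and 1228. HF1 stood far below the other HF libraries, and all HF libraries were below all libraries labelled LF. The means were 443 ± 339 (SD, n = 4) and 1396 ± 239 (SD, n = 3). The difference of -2.84 ± 1.47 did not pass the test (adjusted p = 0.13, limma). Without HF1 it was -1.30 and passed (adjusted p = 0.0082), in a range of 0.0082 to 0.25 over 16 alternatives. HF1 also had the lowest sum of the 11 monocyte markers, 24601 normalized counts against 29053 to 30675 in the other HF libraries. The part of these markers in the values of Cd300e was not tested.

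Cd300lg (ENSMUSG00000017309), nepmucin, was lower in HF. It had 1.15, 9.0, 3.36 and 73.1 normalized counts in HF1 to HF4, which stand for 1, 7, 3 and 57 reads, and 886, 786 and 901 in LF6, LF7 and LF8. The libraries labelled LF were alike, while HF4 stood far above the other HF libraries. The means were 857 ± 62.3 (SD, n = 3) in the libraries labelled LF and 21.7 ± 34.5 (SD, n = 4) in HF, the latter mostly from HF4, and the difference was -6.55 ± 1.08 (adjusted p = 0.0012, limma). With 1 to 57 reads in HF, its size is loosely fixed: without HF4 it was -7.56 and without HF1 -5.86, and over the alternatives it ran from -7.56 to -5.30.

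Endothelial markers were mixed. Of 8 such markers, 6 could be tested and 2 of these, Aplnr and Kdr, were lower in HF, beside 28.7% of all genes tested. Kdr overlapped between the groups. The summed level of the 8 markers was 6.41 to 226 in HF, against 290 to 366 in those labelled LF, most of it Aplnr at 194 to 257. Kdr stood at 19.5 to 76.6 in the libraries labelled LF, and at 0 in HF1, HF3 and HF4 and 20.6 in HF2. Egfl7, Plvap, Cldn5 and Tek overlapped between the groups and did not pass, and Cdh5 and Tie1 were too low to test. Cdh5, which defines endothelium, was at 0 to 29.6 in HF and 6.01 to 13 in LF6 to LF8, and Tek at 0 to 88.8 and 0 to 3.75. HF4 had an endothelial sum of 6.41, with Cdh5, Kdr, Tie1, Tek, Cldn5 and Aplnr at 0. The part of endothelial RNA in the level of Cd300lg was not tested.

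Levels of different genes were compared per kilobase of exon in GENCODE M21, with all annotated exons of a gene merged. That length (5149 bases for Cd300lf, 2645 for Cd300ld) need not be that of the transcripts present, and the order of genes depends on it. Without division by length, Cd300lf (mean 33491) stood above Cd300ld (27430) in HF. In HF, Cd300ld came first at 10371 ± 743 normalized counts per kilobase (SD, n = 4), rank 72 of 14923 genes. Cd300lf at 6504 ± 589 and Cd300lb at 6365 ± 320 followed with overlapping values, so their order is not fixed. Below them stood Cd300a at 3412 ± 97.3, Cd300e at 212 ± 162 and Cd300lg at 7.91 ± 12.6. In the libraries labelled LF the order was Cd300a at 2479 ± 225, Cd300lb at 1991 ± 152, Cd300ld at 1536 ± 220, Cd300e at 669 ± 115, Cd300lg at 313 ± 22.8 and Cd300lf at 152 ± 15.2 (SD, n = 3), with no overlap between neighbours. Cd300lf thus went from rank 142 of all genes in HF to rank 4461, while Cd300a stood at ranks 289 and 221.

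The 6 receptors summed to 26872 ± 1344 normalized counts per kilobase in HF and to 7141 ± 493 in the libraries labelled LF. Their make-up also differed, and shares do not depend on a factor applied to a whole library. Cd300lf held 23.3% to 26.2% of the sum in each HF library and 2.06% to 2.20% in each library labelled LF. Cd300a held 11.7% to 13.6% in HF and 34.1% to 35.8% in the libraries labelled LF. The share of Cd300lb was the most even, with a mean of 23.7% ± 1.39 (n = 4) against 27.9% ± 1.06 (n = 3). Cd300e and Cd300lg, with means of 0.770% and 0.0288% in HF, made up 9.47% and 4.39% in the libraries labelled LF. No test was made of these shares.

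**Figure D2:**
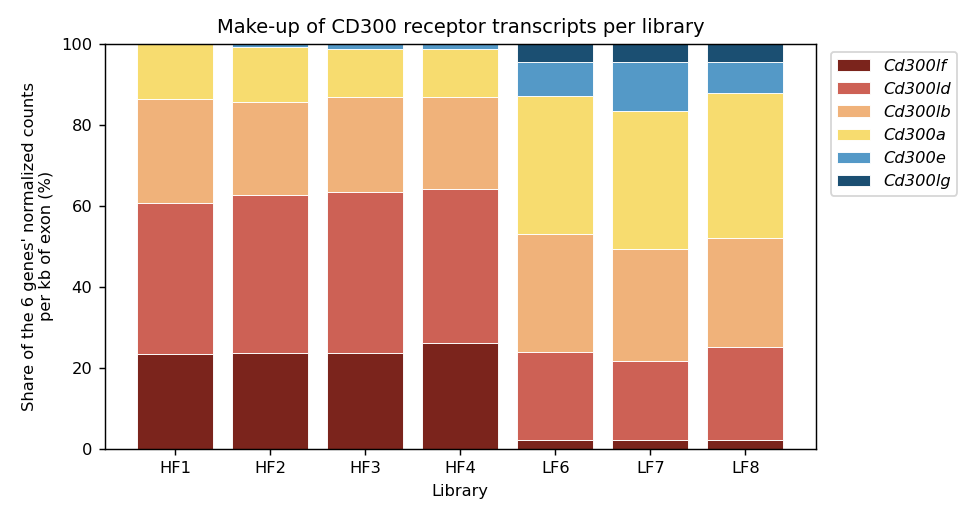
Share (%) of each receptor in the summed normalized counts per kilobase of the 6 CD300 receptor genes, 1 bar per library. Cd300lf and Cd300ld filled over 60% of each HF bar (23.3% to 26.2% for Cd300lf), while Cd300a was the largest part of each bar of the libraries labelled LF (34.1% to 35.8%).

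Other genes of the cluster gave further values. Cd300c, a near relative of the activating receptors, stood at 50.1 to 92.2 normalized counts in HF, against 2.74 to 21.7 in those labelled LF, and was higher by 2.65 ± 0.69 (adjusted p = 0.012, limma), or by 1.83 without LF8. Cd300c2, the FcR gamma-coupled CLM-4, was at 4351 to 4760 against 3415 to 3670, a difference of 0.35 ± 0.07 (adjusted p = 0.0028, limma) that turned to -0.16 with equal totals and -0.26 after quantile normalization. Cd300ld2 and Cd300ld3 had at most 10.3 normalized counts and were not tested. No counts were found under the symbols Cd300ld4 and Cd300ld5. Copies can share reads: 82.1% of the 50-base words of Cd300ld3 transcripts, and 31.0% of those of Cd300ld2, occur in another CD300 gene. Among the 6 receptors this share was at most 3.89% (Cd300ld, mostly with Cd300lf), 1.91% for Cd300lf and 1.90% for Cd300a, and 0% for Cd300lb, Cd300e and Cd300lg.

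Neighbours along the chromosome differed in both directions. Cd300e, at -2.84, lies between the low-count copies and Rab37, a small GTPase gene that contains Cd300lf within its span on the opposite strand. Rab37 was at 264 to 395 normalized counts in HF, against 30.0 to 69.1 in those labelled LF, a difference of 2.84 ± 0.33 (adjusted p = 0.00019, limma). Slc9a3r1, on the far side of Cd300lf, which encodes the scaffold protein EBP50, was higher by 1.69 ± 0.10 (adjusted p = 3.4e-06, limma). Gm11699, a predicted gene inside the span of Cd300lb, was higher by 2.98 ± 0.23 (adjusted p = 2.1e-05, limma). Gprc5c, a receptor gene next to Cd300a, was lower in HF by the test (-3.35 ± 1.22, adjusted p = 0.046, limma), with overlapping groups (1.12 to 69.4 against 59.3 to 97.4). Whether counting used strand is not given in the sources used here. None of the 6 receptors shares exon bases with another gene in GENCODE M21, where this was looked up.

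**Figure D3:**
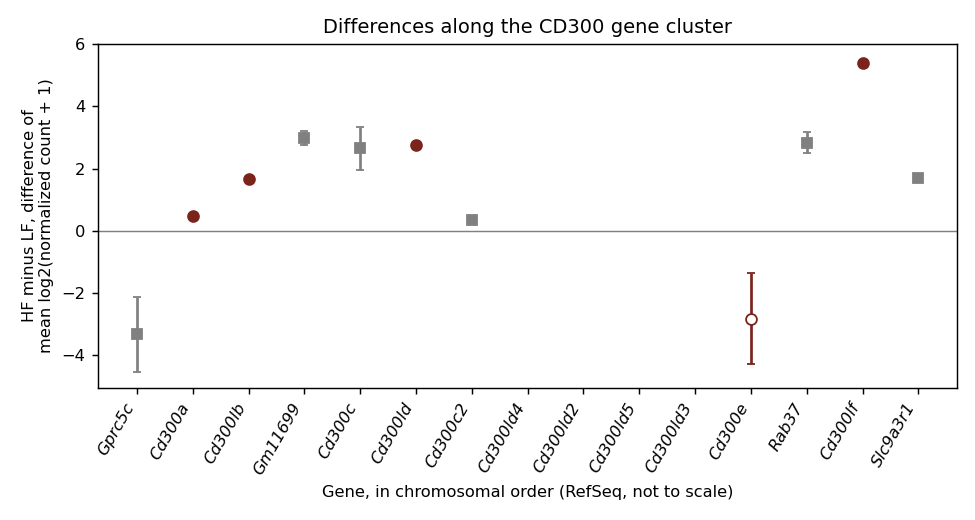
Difference of mean log2(normalized count + 1), HF minus LF, with its standard error, for the genes of the CD300 cluster in chromosomal order (not to scale). Circles are receptors described here, squares are other genes, an open symbol did not pass the test and genes without a symbol were not tested. Cd300e at -2.84 lies 2 places from Cd300lf at 5.42.

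The adaptors through which activating receptors signal were all 3 higher in HF, beside 26.2% of all genes tested. After quantile normalization, however, Fcer1g turned and Tyrobp lost its call (0.093). Tyrobp (DAP12) stood at 30976 to 33453 normalized counts in HF, against 14247 to 14907 in those labelled LF, a difference of 1.15 ± 0.04 (adjusted p = 4.5e-07, limma). Hcst (DAP10) was at 2250.3 to 2680 against 387 to 472, a difference of 2.54 ± 0.12 (adjusted p = 1e-06, limma). Fcer1g, the FcR gamma chain, was at 15242 to 17810.5 against 11306 to 11703, and its difference of 0.49 ± 0.06 (adjusted p = 0.00034, limma) turned to -0.033 with equal totals and -0.44 after quantile normalization.

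Of the phosphatases that ITIM receptors recruit, 2 of 3 were higher in HF, beside 26.2% of all genes tested. Both had a sign that turned after quantile normalization. With equal totals 1 was higher and 2 lower (18% and 42.6% of all genes). After quantile normalization 0 were higher and 2 lower (26.6% and 26.8% of all genes). Ptpn6 (SHP-1) was at 21454 to 22718 normalized counts in HF, against 11971 to 14218 in those labelled LF, a difference of 0.75 ± 0.06 (adjusted p = 3.6e-05, limma). Inpp5d (SHIP-1) was at 7166 to 8009.8 against 5804 to 6321, a difference of 0.30 ± 0.06 (adjusted p = 0.0046, limma). Under quantile normalization these differences turned to -0.25 and -0.51, and with equal totals that of Inpp5d was -0.22. Ptpn11 (SHP-2) was at 334 to 701 against 720 to 1164, a difference of -0.76 ± 0.28 just short of the threshold (adjusted p = 0.0503, limma), and it passed under 7 of 16 alternatives.

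Kinases and effectors that act downstream of ITAM adaptors were higher in 11 of 14 cases and lower in 1, beside 26.2% and 28.7% of all genes. With equal totals 8 were higher and 3 lower (18% and 42.6% of all genes), and after quantile normalization 6 were higher and 5 lower (26.6% and 26.8%). Syk, the kinase that docks on ITAMs, was at 16787 to 21057 normalized counts in HF, against 8050.4 to 8821 in those labelled LF, a difference of 1.17 ± 0.08 (adjusted p = 1e-05, limma). Bcl10, which relays the signal towards NF-kB, differed by 1.29 ± 0.11 and its partner Card9 by 0.73 ± 0.19, the latter lost without LF8 (0.64, adjusted p = 0.055; range 0.0014 to 0.36 over the alternatives). Among the Src-family kinases, Fgr was higher by 0.83 ± 0.09 and Lyn by 0.36 ± 0.08, which quantile normalization turned to -0.15 and -0.54. Plcg2, a phospholipase, was at 6858 to 7872 against 7928 to 8715, a difference of -0.18 ± 0.07 that did not pass (adjusted p = 0.076, limma). It passed with equal totals (-0.70, adjusted p = 5.4e-05), after quantile normalization (-0.98, adjusted p = 4e-06) and without HF1 (-0.21, adjusted p = 0.0496), in a range of 4e-06 to 0.25 over the alternatives.

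Lat2, the adaptor NTAL, was the exception that passed in the other direction. It stood at 138, 92.6, 104 and 149 normalized counts in HF1 to HF4 and at 1219, 1270.2 and 1288 in LF6, LF7 and LF8. The groups were far apart, with a mean 10.4 times higher in the libraries labelled LF and a difference of -3.39 ± 0.21 (adjusted p = 4.9e-06, limma). It kept its side of the threshold under all 16 alternatives.

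Of the receptors known as partners of single CD300 members, all 3 that could be tested were higher in HF, beside 26.2% of all genes tested. Il4ra, the interleukin-4 receptor chain that CD300LF associates with, was at 5950.1 to 9891 normalized counts in HF, against 1950.3 to 2125 in those labelled LF, a difference of 2.03 ± 0.16 (adjusted p = 2.5e-05, limma). Tlr4 and Cd14, the lipopolysaccharide receptor and its co-receptor, which form a complex with CD300LB, differed by 2.38 ± 0.13 and 1.68 ± 0.21 (adjusted p = 2.6e-06 and 0.00027, limma). Havcr1 (TIM-1), a ligand of CD300LB, was at 0 in 6 of 7 libraries and was not tested.

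Over the 24 signalling genes listed, 23 were tested, 19 were higher, 1 was lower and 3 did not pass, beside 26.2% and 28.7% of all genes. Their median difference was 0.77, against -0.16 over all genes tested. The count depended on scaling. With equal totals 14 were higher and 5 lower (18% and 42.6% of all genes), and after quantile normalization 10 were higher and 8 lower (26.6% and 26.8% of all genes). The share of higher genes among all genes called went from 47.7% to 29.7% with equal totals.

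**Figure D4:**
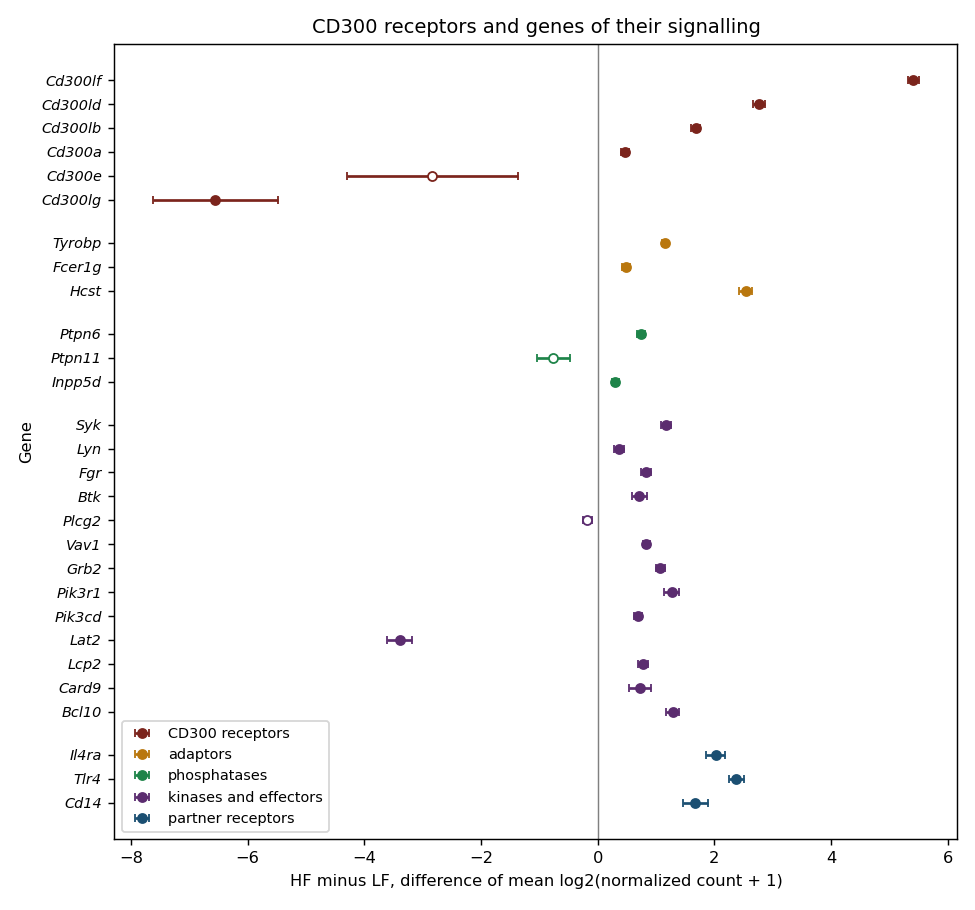
Difference of mean log2(normalized count + 1), HF minus LF, with its standard error, for the 6 CD300 receptors and signalling genes, by role. Filled symbols passed the test and open ones did not. Lat2 at -3.39 stands apart from the other kinases and effectors, which lie between -0.18 and 1.29, and the signs of Cd300a, Fcer1g, Ptpn6, Inpp5d, Lyn, Fgr, Pik3cd and Lcp2 turned under at least 1 other scaling.

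Other receptors and bridging proteins for phosphatidylserine, the lipid that several CD300 members bind, differed in both directions. Of 9 tested, 2 were higher and 4 lower in HF, with 3 that did not pass, beside 26.2% higher and 28.7% lower among all genes, so the counts say nothing particular to the list. Axl, a TAM receptor kinase, was at 141 to 462 normalized counts in HF, against 2805 to 4041 in those labelled LF, and Havcr2 (TIM-3) at 26.9 to 372 against 2045 to 2422. Their differences were -3.75 ± 0.36 and -4.0 ± 0.83 (adjusted p = 6.1e-05 and 0.0043, limma). The bridging proteins Pros1 and Mfge8 differed by -2.95 ± 0.24 and -3.34 ± 0.72 (adjusted p = 2.8e-05 and 0.0051, limma). Stab1, a scavenger receptor, was higher in HF at 209 to 503 against 21 to 125, a difference of 2.77 ± 0.59 (adjusted p = 0.0048, limma).

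Adgrb1 (BAI1) had low values, 23.1, 55.3, 3.36 and 28.2 in HF1 to HF4 and 0.749, 3.00 and 0 in LF6, LF7 and LF8. Its difference of 3.41 ± 1.05 passed (adjusted p = 0.025, limma). It kept direction and call under 9 of the 14 alternatives in which it was tested. Among those that lost the call were the fits without HF1, HF4, LF6 or LF8, with an adjusted p of 0.051, 0.055, 0.075 and 0.092. The range was 0.0028 to 0.092 over the alternatives. Timd4 (TIM-4), Mertk and Gas6 overlapped between the groups, with differences of 1.08 ± 1.43, -0.57 ± 0.82 and -1.66 ± 1.70. Libraries differed widely for each of the 3, and leaving out LF7 turned the sign for Timd4 (-0.25) and Mertk (0.11). Gas6, at 86.1 in HF2 and 0 in the other HF libraries, had a higher mean in HF (21.5) than in LF6 to LF8 (9.38), and its difference turned to 1.18 with edgeR and 1.21 with DESeq2.

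Genes whose pattern over the 7 libraries was most like that of each receptor were looked up among 9610 genes, by the root mean square difference of their log2 values after each gene's mean was subtracted. For Cd300lf these were Vsig10l, Ppp1r3b and Jaml, at 0.12 to 0.14. Jaml, a junctional adhesion molecule of leukocytes, stood at 14770 to 16575 normalized counts in HF, against 344 to 452 in those labelled LF. For Cd300ld they included Adipor1 and Hk3, at 0.095 and 0.10, and for Cd300lb they were Fxyd5, Irf1 and Slfn2, at 0.038 to 0.052. For Cd300a they were Sirt7, Rab11b and Tmem234, at 0.036 to 0.049. The nearest genes to Cd300e (Eef2kmt, Polr1e and Dpep2, at 0.27 to 0.42) were each at 0 in HF1, and those nearest to Cd300lg (Exog, Dph1 and Irf4, at 0.39 to 0.50) were each highest among HF in HF4. Likeness in 2 groups mostly reflects the size of the group difference, and it is given as a description.

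In the authors' deposited table the log2 fold changes were 5.42 for Cd300lf, 2.75 for Cd300ld, 1.68 for Cd300lb and 0.46 for Cd300a. The same table gave -1.66 for Cd300e (adjusted p = 0.24) and -5.31 for Cd300lg (adjusted p = 0.00013). These lie nearer to 0 for Cd300e and Cd300lg than the differences of log2 values given above, and on the same side of the threshold.

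**Figure D5:**
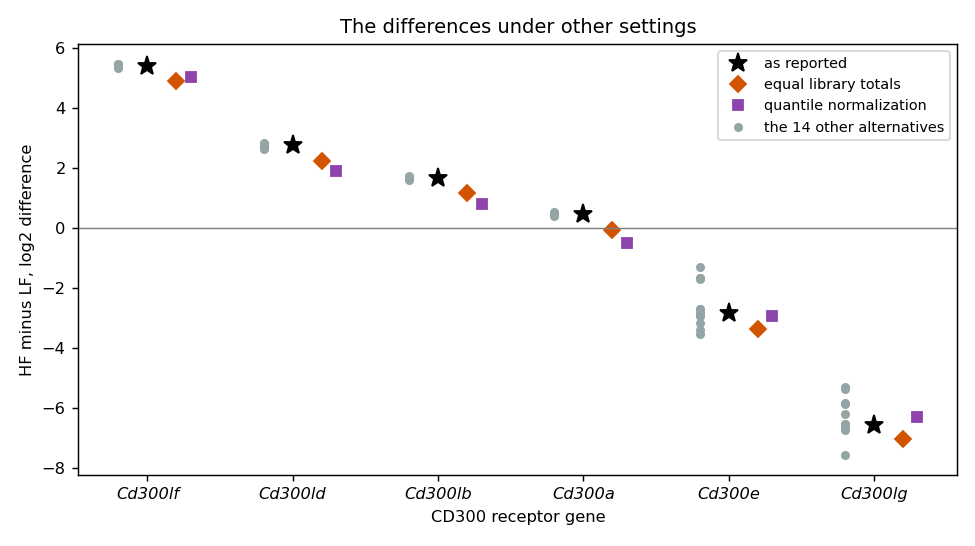
Difference HF minus LF (log2) of each CD300 receptor as reported (star) and under the 16 alternatives. The points of Cd300lf, Cd300ld, Cd300lb, Cd300e and Cd300lg stay on 1 side of 0, whereas Cd300a goes below it with equal totals (-0.056) and quantile normalization (-0.49).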

How the data were processed

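Sorted lung cells of 7 mice (4 HF, 3 LF) were sequenced. Tools listed per the submitters' processing notes are DESeq2 1.20.0, STAR 2.6.1b and featureCounts 1.6.3. Build, annotation and use of strand are not given in the sources drawn on. The values, a signal, are normalized counts per the file headers. All values (100% within 0.01) were whole multiples of 1 read's value, so whole reads were recovered, from 13943173 to 16599658 in HF, and from 16974428 to 18983351 in LF6 to LF8. The deposited table also holds, per the file headers, p-values, a score (the test statistic) and log2 fold changes of the authors, taken up in 1 named paragraph. Columns LF6 to LF8 were taken as LF libraries, although the labels number them 1 to 3. 0 columns were left out. The spread between libraries is all that p-values measure here. The median chi-square of library pairs was 12.2 to 16.2 within HF and 2.29 to 3.01 within LF6 to LF8, against 0.455 from sampling noise. The HF libraries were thus less alike than those labelled LF.

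Genes with a mean of at least 10 entered limma 3.58.1 (trend=TRUE, R 4.3.3) as log2(normalized count + 1), two-sided, with Benjamini-Hochberg adjustment over all genes and a threshold of 0.05. The pseudocount shrinks differences of low genes. Even so, a difference of mean log2 values can exceed that of a count model, as for Cd300lg (-6.55 against -5.30 with DESeq2). Alternatives were pseudocounts of 0.5 and 5, no filter, a mean of at least 50, equal totals, quantile normalization, edgeR 4.0.16 on recovered reads (7624 genes called with the authors' size factors), edgeR with TMM, DESeq2 1.42.0, and each library left out. The tools were also run on simulated data in which few genes changed, unlike here, so that run cannot speak to calls that depend on scaling. Genes named are the 6 receptors, the listed genes, neighbours in RefSeq, and the 3 of likest pattern per receptor (mean of at least 50, no predicted genes). Some genes that this rule names are not reported here. The members and lists were chosen with earlier results of these data known. Exon lengths and overlaps come from GENCODE M21 (99.9% of IDs matched) and promoters from RefSeq, GRCm38.p6. Other marker lists looked at were those of alveolar macrophages (3 of 6 tested higher, 1 lower), mast cells and basophils (0 of 7), dendritic cells (5 of 6 lower), eosinophils (2 of 3 higher), B cells (0 of 3) and NK cells (0 of 4). Among all genes tested, 26.2% were higher and 28.7% lower.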

Additional observations from a re-analysis of the deposited data

Results flagged for a closer look

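The 4 HF values of each of 39 genes were examined for a library far from the others. These were the receptors described here and the named genes of the signalling, other CD300 and phosphatidylserine lists. Neighbours, cell type markers and genes of like pattern were not examined. The 3 libraries labelled LF are too few for such a check. Such a gap is found by chance in about 1 of 20 groups, and 3 were found. Cd300lg stood at 73.1 normalized counts in HF4, while the other HF libraries lay between 1.15 and 9.0. Tlr4 stood at 6196 in HF4, with the others between 4499 and 4709. Gas6, a bridging protein for phosphatidylserine, stood at 86.1 in HF2 and at 0 in the other 3 HF libraries.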

How the results depend on the processing

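Over 16 alternatives, 4 to 6 of the 6 receptors passed the threshold in either direction, beside 6432 to 9042 of all genes. As reported, 55% of all genes tested passed. With equal totals 3 receptors were higher and 1 lower (18% and 42.6% of all genes). After quantile normalization 3 were higher and 2 lower, with Cd300a among the lower (26.6% and 26.8% of all genes). Cd300lf (4.90 to 5.48), Cd300ld (1.90 to 2.85), Cd300lb (0.80 to 1.72) and Cd300lg (-7.56 to -5.30) kept direction and call in all 16 alternatives. Equal totals moved the median difference of all genes by -0.54 against that reported (-0.16), and no filter moved it by 0.35, DESeq2 by 0.18, edgeR by 0.17 (authors' size factors) and by 0.15 (TMM). Scaling to equal totals turned the sign for Cd300a (-0.056), Fcer1g (-0.033), Inpp5d (-0.22), Lyn (-0.16) and Cd300c2 (-0.16). Quantile normalization turned it for Cd300a (-0.49), Fcer1g (-0.44), Ptpn6 (-0.25), Inpp5d (-0.51), Lyn (-0.54), Fgr (-0.15), Pik3cd (-0.12), Lcp2 (-0.081) and Cd300c2 (-0.26). Gas6 turned to 1.18 with edgeR (1.18 with TMM) and 1.21 with DESeq2, and without LF7 Timd4 turned to -0.25 (range -0.25 to 2.38 over libraries left out) and Mertk to 0.11 (range -1.17 to 0.11). The cause was not tested. Of the other CD300 genes, 1 passed with equal totals and 1 with a mean of at least 50, where Cd300c could not be tested, against 2 reported.

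With each library left out in turn, the difference of Cd300e ran from -3.52 to -1.30, passing without HF1 only, and 5 or 6 receptors passed. Over the same fits, 6432 to 8470 of all genes passed, and 20 or 21 of the signalling list. Of 522 values of the other 33 named genes under alternatives, 485 kept direction and call, 17 turned sign, 10 lost and 10 gained the call. No paired analysis was possible because the LF columns carry numbers other than the labels' replicate numbers. Reads per gene limit Cd300lg (1 to 57 in HF) and Cd300e in HF1 (6).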
